A study of Mus musculus with 108 samples.

Results

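The genes described here are 10 immediate early or short-lived mRNA genes: Ier2, Ier5, Fos, Jun, Junb, Egr1, Atf3, Btg2, Tob1 and Klf4. They were picked by symbol, as 10 of the 55573 genes in the count files. No measured value enters that rule, but the list was put forward with earlier results of these data in view, so counts over its members are descriptions and not independent evidence. RNA was measured in single mouse oocytes. Their labels give either a knockout of Exosc10 confined to the oocyte (cKO) or control. Exosc10 encodes a ribonuclease of the nuclear RNA exosome. The Cre driver, strain and age of the females are not given in the sources used here.

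Libraries of polyadenylated RNA (polyA) came from 15 cKO and 7 control oocytes at the germinal vesicle stage (GV, before meiotic resumption), from 11 cKO and 8 control oocytes after 3 h of culture (GV3h), and from 15 cKO and 8 control eggs dissected from the oviduct (MII). Libraries made without polyA selection from random primers (RiboMinus) came from 7 cKO and 8 control oocytes at GV and 4 cKO and 3 control eggs at MII. Each genotype had 2 polyA females at GV and 3 at each later stage. In RiboMinus each had 2 females at GV, and at MII there were 2 cKO females and 1 control female. Oocytes of a female share that female, so the tests were run on counts summed per female.

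Immediate early genes are switched on within minutes of a stimulus without new protein synthesis, and their mRNAs are usually degraded quickly, often through AU-rich elements that recruit deadenylases. Fos, Jun, Junb, Egr1, Atf3 and Klf4 encode transcription factors, and Fos pairs with Jun proteins to form AP-1. Btg2 and Tob1 encode proteins of the BTG/TOB family, which bind the deadenylase CCR4-NOT. Ier2 and Ier5 encode nuclear proteins of the immediate early response. A fully grown oocyte stops transcribing before it resumes meiosis, so its mRNA levels then depend on storage and decay.

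Gene counts per library ranged from 4638718 to 8735914 in polyA and from 12319658 to 62675760 in RiboMinus. At GV3h the control oocytes were shallower than the cKO oocytes, at 4638718 to 5728197 against 5476376 to 8415126 counts, and at RiboMinus MII the cKO eggs reached 62675760 counts against 20447150 in controls. The targeted gene Exosc10 was lower in cKO in every contrast, by a log2 change of -5.47 to -7.49 in polyA and -5.34 and -6.09 in RiboMinus. The 12 oocyte markers examined were abundant in all groups. They moved with genotype in eggs: at polyA MII 6 were called higher and 0 lower in cKO (50% against 18.9% of all genes), among them Zp2 (log2 change 2.03), Zp3 (1.56) and Nlrp5 (1.205). At RiboMinus MII 0 were higher and 3 lower (25% against 7.3%), Ooep (-1.97), Nlrp5 (-1.69) and Dppa3 (-1.66), and the part of these shifts in the members' differences in eggs was not tested. Some libraries also held markers of other cells, summed over 25 granulosa, oviduct and blood cell genes without Cyp19a1, Nr5a2 and Kitl. The sum passed 25 CPM (counts scaled to library size with trimmed mean factors) in 7 of 64 polyA and 5 of 22 RiboMinus libraries. Of those 12 libraries, 3 were polyA GV controls from female V856 and 3 polyA GV cKO oocytes from female V857. Female V983 gave 1 at polyA GV3h, and in RiboMinus they were 1 GV control, 1 GV cKO oocyte and 3 MII cKO eggs. Their part in the results was not tested except by leaving them out. Values without them are given beside the called results of the members and some of their other results, and not for genes of the other lists. These libraries include all 3 oocytes of V856, so 1 polyA GV control female is then left.

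Promoter windows of RefSeq on GRCm38.p6 were matched for 8 of the 10 genes, and Ier2 and Egr1 had no entry. Of the 250 bases before the start, 3 windows are shown. Btg2 and Tob1, which belong to 1 protein family, were called in opposite directions between the genotypes at polyA GV3h, and Fos is the best known member of the list. Capitals mark the cAMP response element TGACGTCA or its core letters TGACG, on either strand. The windows are chr1:134079156-134079405 on the minus strand, chr11:94211204-94211453 on the plus strand and chr12:85473640-85473889 on the plus strand.
Btg2: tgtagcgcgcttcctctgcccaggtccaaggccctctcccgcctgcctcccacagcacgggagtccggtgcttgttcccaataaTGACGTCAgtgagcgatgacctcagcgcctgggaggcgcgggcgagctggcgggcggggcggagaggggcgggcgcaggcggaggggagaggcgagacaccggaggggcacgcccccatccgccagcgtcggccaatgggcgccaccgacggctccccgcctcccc
Tob1: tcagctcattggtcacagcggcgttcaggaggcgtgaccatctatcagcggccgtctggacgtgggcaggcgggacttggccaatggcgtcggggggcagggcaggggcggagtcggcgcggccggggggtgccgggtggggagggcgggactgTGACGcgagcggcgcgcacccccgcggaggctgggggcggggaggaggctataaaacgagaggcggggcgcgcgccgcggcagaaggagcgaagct
Fos: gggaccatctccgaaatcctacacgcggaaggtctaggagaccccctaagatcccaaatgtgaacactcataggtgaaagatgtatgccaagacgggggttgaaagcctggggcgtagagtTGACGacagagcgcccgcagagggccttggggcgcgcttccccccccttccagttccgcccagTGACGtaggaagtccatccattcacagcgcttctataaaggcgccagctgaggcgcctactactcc
The element TGACGTCA was searched on both strands and stood in 1 of the 8 windows, that of Btg2, at bases 166 to 159 before the start. It was present in 1.55% of all 32851 windows of this length. The core letters, a search added after the windows were read and overlapping the full element, stood in 6 of 8 windows and in 17.8% of all windows. Neither the CArG box, the serum response factor site, nor the AP-1 letters TGANTCA were found in any of the 8 windows. They were present in 1.47% and 6.75% of all windows. Bases farther from the start and sites with other letters were not searched.

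The members were compared between genotypes in 5 contrasts, in which a gene was called at an adjusted p under 0.05 (edgeR's quasi-likelihood test with Benjamini-Hochberg adjustment over all genes tested). At polyA GV 1 of the 9 members tested was called, Ier2, against 7.38% of all genes (3.47% higher and 3.91% lower in cKO). At polyA GV3h 4 of 9 were called, Ier2, Tob1 and Jun higher and Btg2 lower in cKO, against 25.2% of all genes (12.5% higher and 12.7% lower). At polyA MII 2 of 9 were called, Junb higher and Btg2 lower, against 18.9% (11.9% higher and 6.99% lower). In RiboMinus 0 of 10 members were called at GV, where only 8 genes in all, 0.0315%, passed (0.0275% higher and 0.00393% lower). At RiboMinus MII 1 of 10 was called, Fos, against 7.3% (3.61% higher and 3.69% lower). At RiboMinus GV 3727 of 25425 genes had an unadjusted p under 0.05, and the DESeq2 Wald test called 1567 genes, 3 of the members among them. The median log2 change of the members, beside that of all genes, was 0.15 against 0.08 at polyA GV, 0.80 against 0.07 at polyA GV3h and -0.33 against 0.12 at polyA MII. In RiboMinus it was 0.85 against 0.04 at GV and 1.03 against 0.25 at MII, and these medians were the same with members absent from the controls set at their lower bounds.

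**Figure D1:**
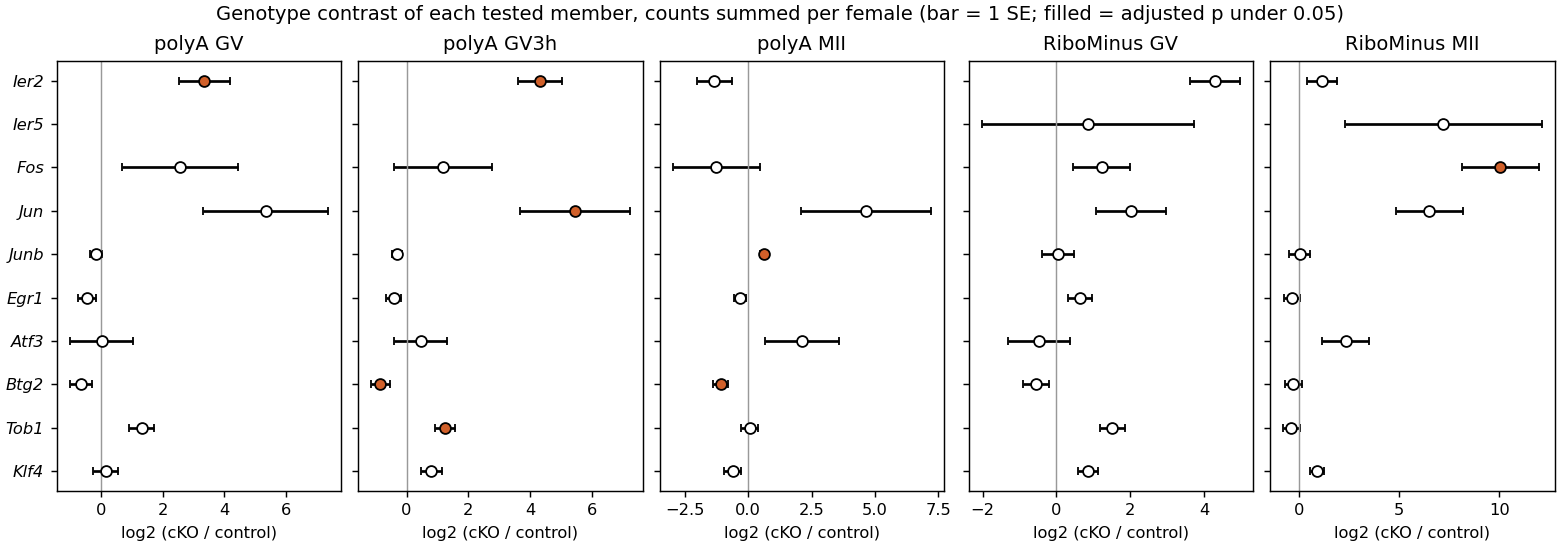
Log2 change of each member, cKO over control, in the 5 genotype contrasts, with bars of 1 standard error, filled where the adjusted p was under 0.05. Ier2 and Tob1 lie right of 0 at polyA GV, polyA GV3h and RiboMinus GV, Btg2 lies left of 0 in all 5 panels, and each panel has its own log2 axis.

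Ier2 was higher in cKO oocytes before maturation and was not called at MII. Its single exon lies at chr8:84661331-84662852 on the minus strand of GRCm38. In polyA GV controls it was measured at 2.10, 1.88 and 2.31 CPM in female V856 and at 1.998, 3.60, 3.10 and 2.90 CPM in female V889. All 5 cKO oocytes of female V857 stood at 33.3 to 73.3 CPM. The 10 cKO oocytes of female V888 ranged from 0.647 to 56.9 CPM. Only 3 of them, at 56.9, 17.7 and 9.82 CPM, exceeded the highest control, and 5 lay below the lowest control. The means of the females were 44.7 and 9.49 CPM in cKO and 2.09 and 2.90 CPM in controls. Ier2 rose by a log2 change of 3.35 ± 0.83 (SE, adjusted p = 0.0257), a 10.2-fold rise that rests on V857: without her it was 1.76 (adjusted p = 0.242). The call was also lost without V856 or V889, at log2 changes of 3.13 and 3.63 with 1 control female left, whose spread is then taken from the other groups. It was lost as well without the libraries rich in other-cell markers (log2 change 2.97), which again leaves 1 control female. In limma voom with a random female block the log2 change was 1.899 (adjusted p = 0.354), and with only the GV groups in the fit 3.33 (adjusted p = 0.151).

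At polyA GV3h Ier2 was higher in cKO. Controls ranged from 1.27 to 3.23 CPM with a median of 1.91, and cKO oocytes from 1.78 to 94.3 CPM with a median of 43.8. Of the 11 cKO oocytes, 10 lay above the highest control, the exception being an oocyte of V983. The 3 oocytes of V983 were at 1.78, 4.65 and 82.9 CPM, so her mean rests on 1 of them, the oocyte with 62.3 CPM of other-cell markers. Female means were 1.961 ± 0.23 CPM in controls and 41.5 ± 13.0 CPM in cKO (SD, n = 3 each). Ier2 rose 19.9-fold (log2 change 4.32 ± 0.72, adjusted p = 0.00064), and stayed called under every alternative fit run and without any 1 female, V983 included. Without the libraries rich in other-cell markers it was 3.98 (adjusted p = 0.0108).

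RiboMinus oocytes at GV had Ier2 at 0.286 to 1.53 CPM (median 0.762) in controls and at 2.44 to 29.6 CPM (median 18.3) in cKO, so all 7 cKO oocytes lay above all 8 controls. The 4 oocytes of V1131 were at 18.3 to 29.6 CPM, and the 3 of V1126 at 4.64, 2.44 and 13.9 CPM. A log2 change of 4.30 ± 0.68 missed the threshold (adjusted p = 0.0803). It passed without the libraries rich in other-cell markers (4.32, adjusted p = 0.0216), without V1126 (4.86, adjusted p = 0.0140) and in the fits of limma voom, of DESeq2, of single oocytes and without a count filter.

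At MII the levels of Ier2 were low in both genotypes and overlapped. In polyA eggs, controls ranged from 0.155 to 11.7 CPM (median 1.86) and cKO from 0 to 3.27 CPM (median 0.942), with 4 of 15 cKO eggs at 0. The log2 change was -1.33 ± 0.70 (adjusted p = 0.197). The genotype difference at MII was smaller than at GV by 4.68 ± 1.08 log2 units (adjusted p = 0.0377, interaction of stage and genotype), a contrast in which 1.94% of all genes were called and Ier2 was the 1 member called. This call was lost without V857 (-3.09, adjusted p = 0.216) and in 10 of the other 15 fits that left out a single female, and also without the libraries rich in other-cell markers (-4.28, adjusted p = 0.362). In RiboMinus eggs Ier2 was at 6.56, 0 and 0 CPM in the 3 control eggs and at 7.14, 3.28, 4.45 and 1.904 CPM in the 4 cKO eggs. The log2 change was 1.14 ± 0.77 (adjusted p = 0.357), opposite in sign to that of polyA eggs, but -0.11 (adjusted p = 0.978) without the libraries rich in other-cell markers. The control group there is 1 female, so its test takes the spread from the other groups.

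Tob1 was high in the same oocytes. Tob1 lies at chr11:94211454-94215495 on the plus strand. Its control level at polyA GV was 10.3 to 20.7 CPM. In cKO, V857 oocytes stood at 37.3 to 56.8 CPM, and V888 oocytes at 9.49 to 64.4 CPM, with 64.4 and 48.9 CPM in the same 2 oocytes that were highest for Ier2 in that female. Its log2 change of 1.31 ± 0.39 fell short of the threshold (adjusted p = 0.0547). It passed with library totals, without a count filter and in DESeq2. Without V888 it was 1.79 (adjusted p = 0.0105), and without V857 the estimate fell to a log2 change of 0.58. It was 1.51 without the libraries rich in other-cell markers (adjusted p = 0.299).

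At polyA GV3h Tob1 rose 2.36-fold in cKO (log2 change 1.242 ± 0.32, adjusted p = 0.0109). Controls ranged from 7.41 to 20.4 CPM (median 13.4) and cKO oocytes from 10.2 to 59.5 CPM (median 38.8), and 9 of 11 cKO oocytes exceeded the highest control. The remaining 2, at 10.8 and 10.2 CPM, were oocytes of V983, whose remaining oocyte stood at 49.7 CPM. The call held without any 1 female, with adjusted p of up to 0.0466, and was lost without the libraries rich in other-cell markers, which takes out that V983 oocyte (1.07, adjusted p = 0.100).

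In RiboMinus GV all 7 cKO oocytes had more Tob1 (51.6 to 146 CPM, median 114) than any of the 8 controls (29.4 to 51.3 CPM, median 34.2). Its log2 change was 1.52 ± 0.35, with an adjusted p of 0.128, and without the libraries rich in other-cell markers 1.51 (adjusted p = 0.0250). At MII the genotypes overlapped for Tob1, with log2 changes of 0.06 ± 0.32 in polyA and -0.38 ± 0.41 in RiboMinus (0.03 without the libraries rich in other-cell markers), neither called.

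**Figure D2:**
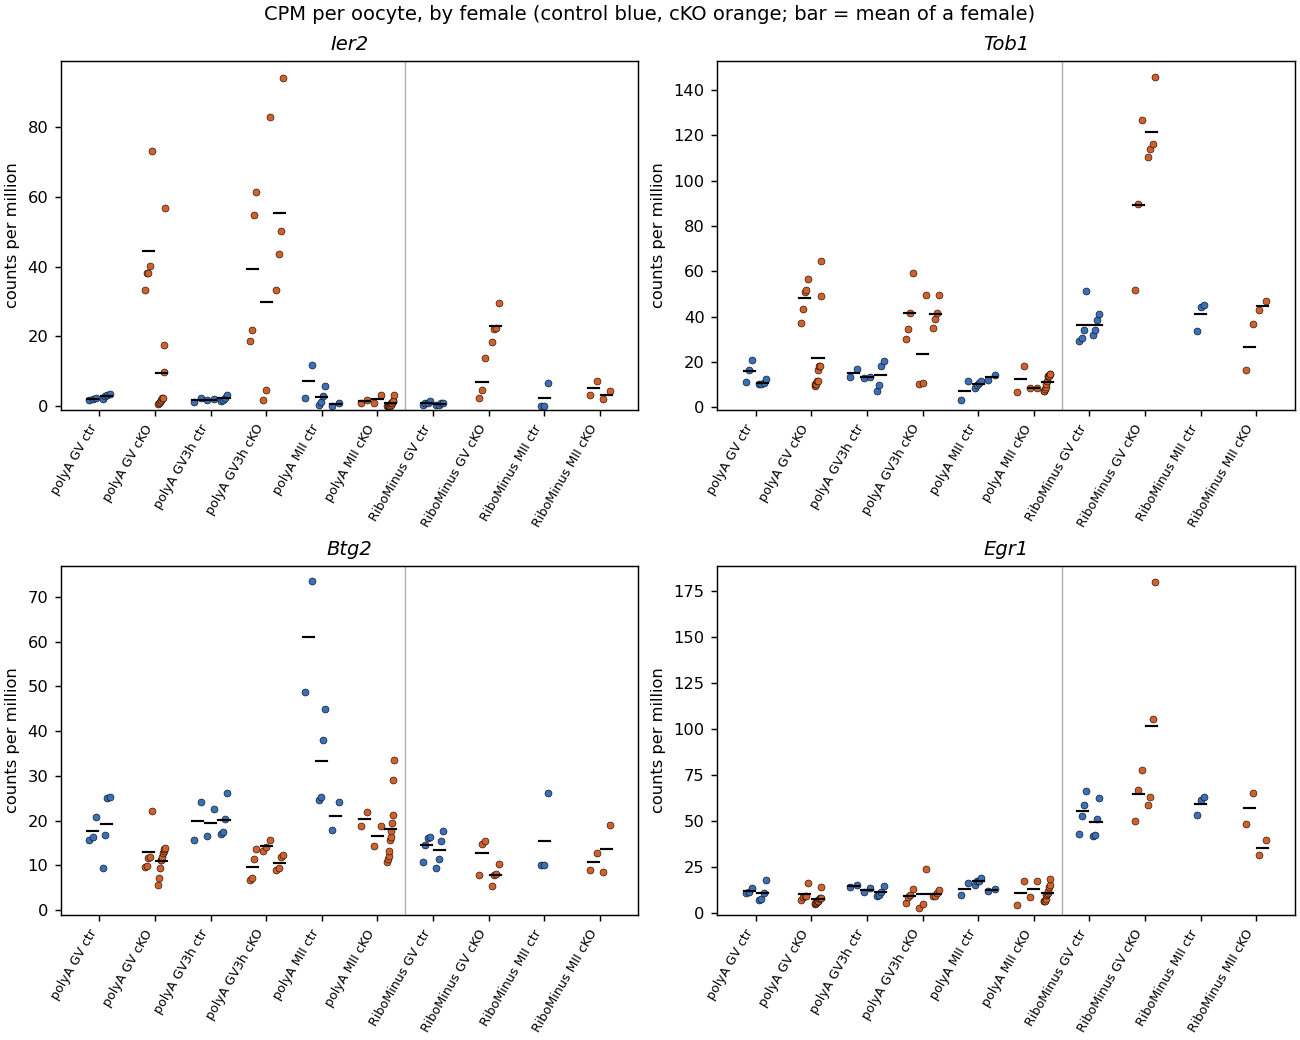
CPM (y axis, linear) of Ier2, Tob1, Btg2 and Egr1 in each oocyte, by group and within a group by female, with a bar at each female's mean. Ier2 and Tob1 are high in cKO at GV and GV3h but spread widely within V888 and V983, Btg2 is highest in polyA MII controls, and Egr1 is higher in RiboMinus than in polyA.

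Across the cKO oocytes of a group, Ier2 and Tob1 varied together. Over log2(CPM + 1), Pearson's r was 0.95 and Spearman's rho 0.85 at polyA GV (15 oocytes), 0.97 and 0.95 at polyA GV3h (11 oocytes) and 0.90 and 0.64 at RiboMinus GV (7 oocytes). Within the 10 oocytes of V888 they were 0.93 and 0.71. The points share library, depth and female, and no p is given. In controls r between Ier2 and Tob1 was -0.59 at polyA GV (7 oocytes), 0.02 at GV3h, 0.54 at RiboMinus GV and -0.64 in polyA eggs (8 each), and in polyA cKO eggs it was -0.24 (15 eggs). The oocyte marker Zp3, a zona pellucida protein, followed Ier2 in the same groups with r of 0.84, 0.96 and 0.91. In controls r between Ier2 and Zp3 was -0.79 at polyA GV, -0.53 at GV3h and -0.39 at RiboMinus GV, over 7, 8 and 8 oocytes, but 0.79 over the 8 control eggs of polyA MII, and -0.17 over the 15 cKO eggs there. Between Ier2 and the library's total count r was -0.26, 0.03 and 0.26 in the 3 cKO groups, and 0.89, 0.15 and 0.84 in their controls, where Ier2 was low. With the other-cell marker sum it was 0.22, 0.15 and -0.50 in the cKO groups and -0.69, 0.03 and -0.48 in the controls. Atf3 followed Ier2 at polyA GV (r of 0.85) but not at polyA GV3h (0.18), while Egr1 and Klf4 did so at polyA GV3h (0.87 and 0.84).

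**Figure D3:**
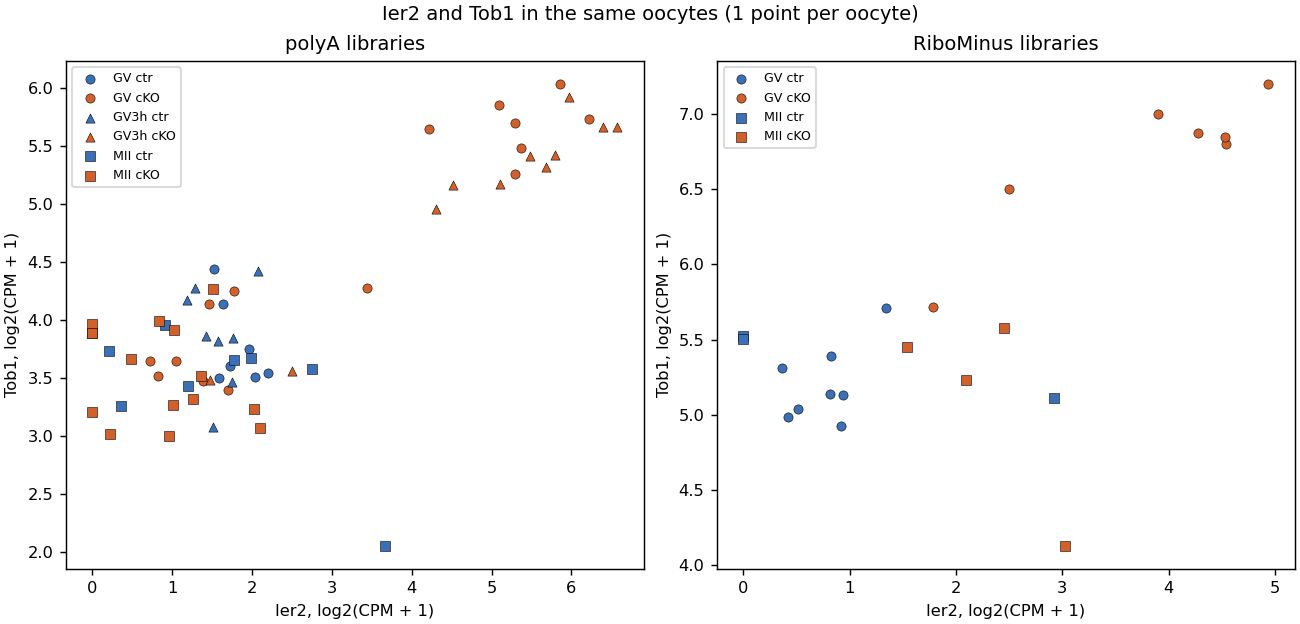
Ier2 (x axis) and Tob1 (y axis), both as log2(CPM + 1), in each oocyte of the polyA (left) and RiboMinus (right) libraries, by stage and genotype. The cKO oocytes at GV and GV3h run along a diagonal from the control range to the top right, and the MII eggs lie at low Ier2.

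Btg2, the other BTG/TOB family member of the list, had log2 changes opposite in sign to those of Tob1 at polyA GV, polyA GV3h and RiboMinus GV. At polyA MII Tob1 was near 0 (0.06), and at RiboMinus MII both were below 0 (Btg2 -0.29, Tob1 -0.38). Btg2 lies at chr1:134075170-134079120 on the minus strand. At polyA GV3h its level was 19.9 ± 0.34 CPM in controls and 11.5 ± 2.40 CPM in cKO (SD of female means, n = 3 each). Controls ranged from 15.6 to 26.1 CPM and cKO oocytes from 6.82 to 15.6 CPM, so 10 of 11 cKO oocytes lay below the lowest control. Btg2 thus had a log2 change of -0.84 ± 0.30 (adjusted p = 0.0497), just past the threshold, and 11 of the 16 fits that left out a female lost the call, with adjusted p of up to 0.152. It was also lost without the libraries rich in other-cell markers (-0.79, adjusted p = 0.0999), with library totals (-0.61, adjusted p = 0.140) and without a count filter. At polyA MII the means were 38.4 ± 20.5 CPM in controls and 18.4 ± 1.89 CPM in cKO (n = 3 each). The log2 change was -1.08 ± 0.30 (adjusted p = 0.0203). It rests partly on control female V836, whose 2 eggs had 48.7 and 73.4 CPM: without her the change was -0.58 (adjusted p = 0.119), and the call was also lost without V842 (-0.996, adjusted p = 0.0709) or V897 (-1.10, adjusted p = 0.0512), and in the fit of the MII groups alone (adjusted p = 0.0587). It held without the libraries rich in other-cell markers (-1.07, adjusted p = 0.0375). The log2 changes at polyA GV (-0.67 ± 0.36), RiboMinus GV (-0.55 ± 0.35) and RiboMinus MII (-0.29 ± 0.43) had the same sign and were not called.

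Of the Jun family, Junb was called in 1 of the 5 genotype contrasts, at polyA MII. Its exons at chr8:84974484-84978718 overlap those of Prdx2 on the other strand, and since the strand setting of the counting is not given in the sources used here, its counts are uncertain. In polyA MII Junb was 22.0 ± 1.72 CPM in controls and 34.8 ± 0.35 CPM in cKO (SD, n = 3 each), and 14 of 15 cKO eggs exceeded the highest control. The log2 change was 0.61 ± 0.16 (adjusted p = 0.0149), called without any 1 female and without the libraries rich in other-cell markers (0.62, adjusted p = 0.0303), but lost in the fit without a count filter (0.63, adjusted p = 0.122) and in that of the MII groups alone (0.59, adjusted p = 0.0508). The other 4 contrasts gave log2 changes of -0.32 to 0.04, none called.

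Fos and Jun were near 0 in most oocytes and high in a few libraries. In the 7 polyA GV controls Fos reached 1.03 CPM and Jun 0.144 CPM, with 1 Jun count over the group. Among the 15 cKO oocytes Jun was at 0 in 10 and reached 9.30 CPM in an oocyte of V857, in which Fos stood at 11.3 CPM and other-cell markers summed to 32.1 CPM. At polyA GV3h the controls again held 1 Jun count over 8 oocytes, and 96 were counted in cKO, so the ratio of levels was 45.9 (exact 95% interval 8.05 to 1833, counting error only). Jun was at 8.08 CPM in the V983 oocyte with 62.3 CPM of other-cell markers, among them the gap junction gene Gja1 at 34.2 CPM and the inhibin subunit Inha at 17.4 CPM. The next Jun value in that group was 1.14 CPM. Jun was called there (adjusted p = 0.0387) but not without V993, V951, V982 or V995 (adjusted p = 0.0507 to 0.116), and with 1 control count its fitted fold change is no measure of size. Without the libraries rich in other-cell markers it was not tested. Its exons overlap those of the antisense gene Junos, so its counts are uncertain too.

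At RiboMinus MII Fos had 0 counts in the 3 control eggs, which allows up to 0.0603 CPM over the group, and 318 counts in the 4 cKO eggs. Its level was 3.30 and 1.64 CPM in V1166 and 2.58 and 0.495 CPM in V1167, at least 39.1-fold higher than the control limit of 3 counts over the group. Fos was called (adjusted p = 0.0254), and the call was lost without V1132 or V1133 (adjusted p = 0.0653 in both), which are in other groups and enter only the estimate of spread. Jun followed with 3.30, 3.33, 1.40 and 0.381 CPM in the same eggs against 1 control count, a ratio of 117 (exact 95% interval 20.8 to 4618), and was not called (adjusted p = 0.0506), though it passed in 6 alternative fits and without V1167. Without the libraries rich in other-cell markers, which leaves 1 cKO egg, its fitted log2 change was 4.06, against 6.51 with all libraries, and it was not called. Ier5 had 49 counts, all in the eggs of V1166 at 0.759 and 0.149 CPM, against 0 in controls, at least 6.02-fold higher.

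The same cKO eggs held genes taken here as markers of other cells. The oviduct glycoprotein gene Ovgp1 was at 81.3 and 74.7 CPM in V1166 and at 8.90 and 6.74 CPM in V1167, and at up to 0.909 CPM in the controls. The 6 oviduct markers summed to 7.62 to 91.3 CPM in cKO eggs and 1.40 to 2.52 CPM in controls, in which Pax8 and Krt18 were at 0. Ovgp1 was also called higher in cKO at polyA MII (log2 change 3.98, adjusted p = 0.0317). The median oviduct sum was higher in cKO in the other groups too: 3.84 against 1.74 CPM at polyA GV, 3.91 against 1.14 at GV3h, 3.95 against 1.67 at polyA MII and 1.91 against 1.11 at RiboMinus GV. Whether these genes came from other cells was not tested. The 7 blood cell markers were all at 0 in controls and summed to 0.108 to 24.4 CPM in cKO, with the leukocyte genes Ptprc and Tyrobp at 13.8 and 10.6 CPM in a V1166 egg. The 12 granulosa markers, leaving out Cyp19a1, Nr5a2 and Kitl, which nearly all oocytes held, summed to 1.04 to 17.5 CPM in cKO eggs and to 4.29 to 8.49 CPM in controls. With those 3 genes included, the 15 markers summed lower in cKO eggs, at 71.1 to 106.7 CPM, than in controls, at 152 to 169 CPM. Without the libraries over 25 CPM of such markers, 3 of the cKO eggs among them, Fos was no longer called. Its fitted log2 change was then 7.55, against 10.06 with all libraries. With 1 cKO egg left and 0 control counts, these values are no measure of size. The remaining cKO egg, with 12.1 CPM of such markers, had Fos at 0.495 CPM.

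**Figure D4:**
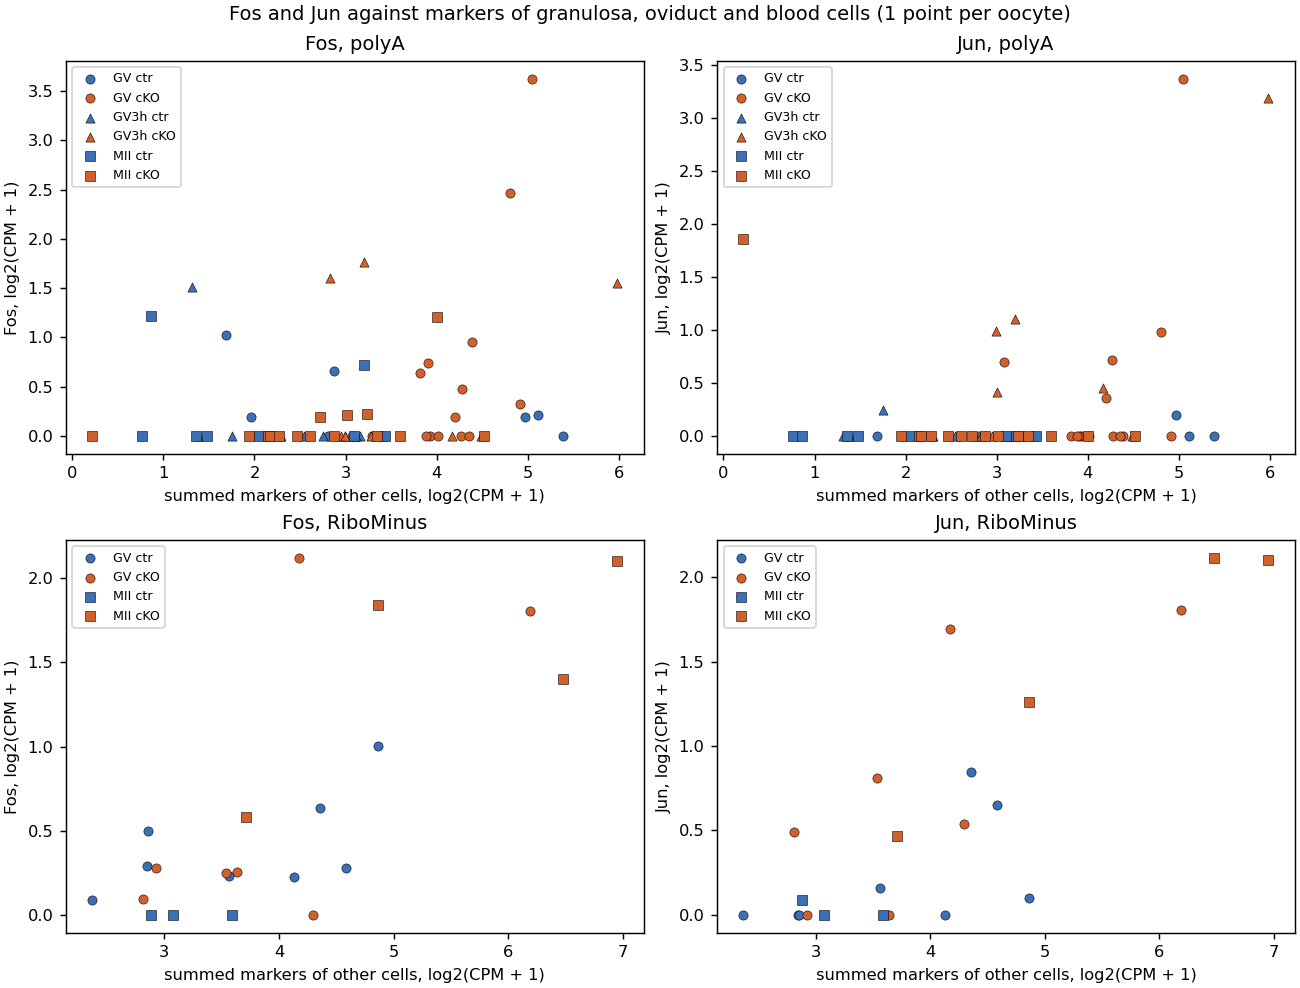
Fos (left) and Jun (right) as log2(CPM + 1) against the summed markers of granulosa, oviduct and blood cells, also as log2(CPM + 1), in each polyA (top) and RiboMinus (bottom) oocyte. Several of the highest Fos and Jun values lie at the right, among libraries with many such markers, while most polyA oocytes lie at 0 on the y axis, and an MII cKO egg has Jun at 2.63 CPM with almost no such markers.

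Egr1, a zinc finger transcription factor, Atf3, a stress-induced repressor, and Klf4 were not called between genotypes. Egr1 had log2 changes of -0.46 ± 0.29, -0.41 ± 0.24 and -0.33 ± 0.24 at polyA GV, GV3h and MII, and 0.64 ± 0.33 at RiboMinus GV, where 1 oocyte of V1131 stood at 179 CPM and the other 6 at 49.6 to 105 CPM. At RiboMinus MII its log2 change was -0.35 ± 0.40 (-0.93 without the libraries rich in other-cell markers). Klf4 had 10.4 ± 2.30 CPM in cKO and 5.55 ± 2.07 CPM in controls at polyA GV3h (n = 3 each), a log2 change of 0.80 ± 0.34 (adjusted p = 0.0914; with library totals 1.03, adjusted p = 0.0315), and 0.86 ± 0.28 at RiboMinus GV (adjusted p = 0.232). Its log2 change was 0.15 ± 0.40 at polyA GV, -0.61 ± 0.33 at polyA MII and 0.92 ± 0.35 at RiboMinus MII. Atf3 was at 0 to 5.29 CPM in all polyA GV and GV3h oocytes and overlapped between the genotypes. At RiboMinus GV its log2 change was -0.47 ± 0.84. In RiboMinus MII the control eggs had Atf3 at 0.325, 0.199 and 0.311 CPM, and the cKO eggs at 3.27 and 0 CPM in V1166 and 0 and 1.07 CPM in V1167, so cKO eggs lay on both sides of the controls. The log2 change was 2.33 ± 1.18 (adjusted p = 0.237), and without V1167 it passed (3.05, adjusted p = 0.0470). The V1166 egg at 3.27 CPM, with 198 counts, held 122.9 CPM of other-cell markers, whose part was not tested. Ier5 was not tested in polyA, where it held 5 counts over all GV controls, 1 over all GV cKO oocytes and 6 over all GV3h cKO oocytes.

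Between stages, 0 of 9 members were called from GV to GV3h in polyA libraries of either genotype, where 0% of all genes passed. There 425 genes in controls and 373 in cKO had an unadjusted p under 0.05, and DESeq2 called 18 and 17 genes, no member among them. From GV to MII 3 of 9 members were called in polyA controls, against 42.5% of all genes, and 4 of 9 in cKO, against 44.7%. The polyA signal of Atf3 was nearly lost in both: GV controls held 53 counts and MII controls 1, a ratio of 57.2 (exact 95% interval 9.83 to 2302). In cKO it fell by 3.57 ± 1.03 on the log2 scale (adjusted p = 0.00992), a call lost without V857 (-2.17). It was called in both genotypes without the libraries rich in other-cell markers, at -4.83 in controls and -3.70 in cKO (adjusted p = 0.0150). In RiboMinus the log2 change of Atf3 was -2.45 in controls, with 1 female at MII, and 0.35 in cKO, neither called. In polyA controls Klf4 rose 2.60-fold (log2 change 1.38 ± 0.39, adjusted p = 0.00871) and Btg2 2.14-fold (1.10 ± 0.34, adjusted p = 0.0166), relative to the other genes. In RiboMinus controls, with 1 female at MII, the log2 changes were 0.06 for Klf4 and 0.09 for Btg2. The Klf4 call was lost without V889 (1.30, adjusted p = 0.0745), and that of Btg2 without V856, V889 or V836, at 0.59 without V836 (adjusted p = 0.0940). With library totals in place of trimmed mean factors neither passed, at 0.94 and 0.66 (adjusted p = 0.0520 and 0.126). Library totals moved the median of all genes from -0.26 to -0.69 in this contrast and from -0.33 to -0.86 in cKO, so both genes stayed above that median. Without the libraries rich in other-cell markers the log2 changes were 1.54 for Klf4 (adjusted p = 0.0744) and 1.09 for Btg2 (adjusted p = 0.103).

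In cKO both Ier2 and Tob1 came down. Ier2 fell by 4.27 ± 0.76 on the log2 scale from GV to MII (adjusted p = 0.000251), under every alternative and without any 1 female, though it fell by 2.697 without V857 and by 4.04 without the libraries rich in other-cell markers (adjusted p = 0.0051). Tob1 fell by 1.57 ± 0.35 (adjusted p = 0.00172), by 0.85 without V857 (adjusted p = 0.0896) and by 1.44 without those libraries (adjusted p = 0.0243). Junb rose by 0.53 ± 0.18 (adjusted p = 0.0243), but with library totals the change was 0.01, and the call was lost without V857, V888 or V897, without a count filter and with only the groups compared. It held without the libraries rich in other-cell markers (0.54, adjusted p = 0.0416). In RiboMinus controls 0 of 10 members were called from GV to MII, against 0.00787% of all genes, and in cKO 1 of 10, against 2.32%. That member was Tob1, which fell by 1.75 ± 0.35 (adjusted p = 0.0447). This call was lost in 6 of 7 fits that left out a female, over which the log2 change ranged from -2.37 to -1.30. It was also lost without the libraries rich in other-cell markers (-1.40), which leaves 1 cKO egg at MII. Ier2 had a log2 change of -1.76 ± 0.60 there (adjusted p = 0.154), and of -3.14 without those libraries (adjusted p = 0.0832). The interaction of stage and genotype was -3.15 ± 0.93 for Ier2 and -1.90 ± 0.53 for Tob1 in RiboMinus, neither called (adjusted p = 0.218 and 0.203). No gene passed in that contrast, where 3611 had an unadjusted p under 0.05, DESeq2 called 1141 and limma voom 833.

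**Figure D5:**
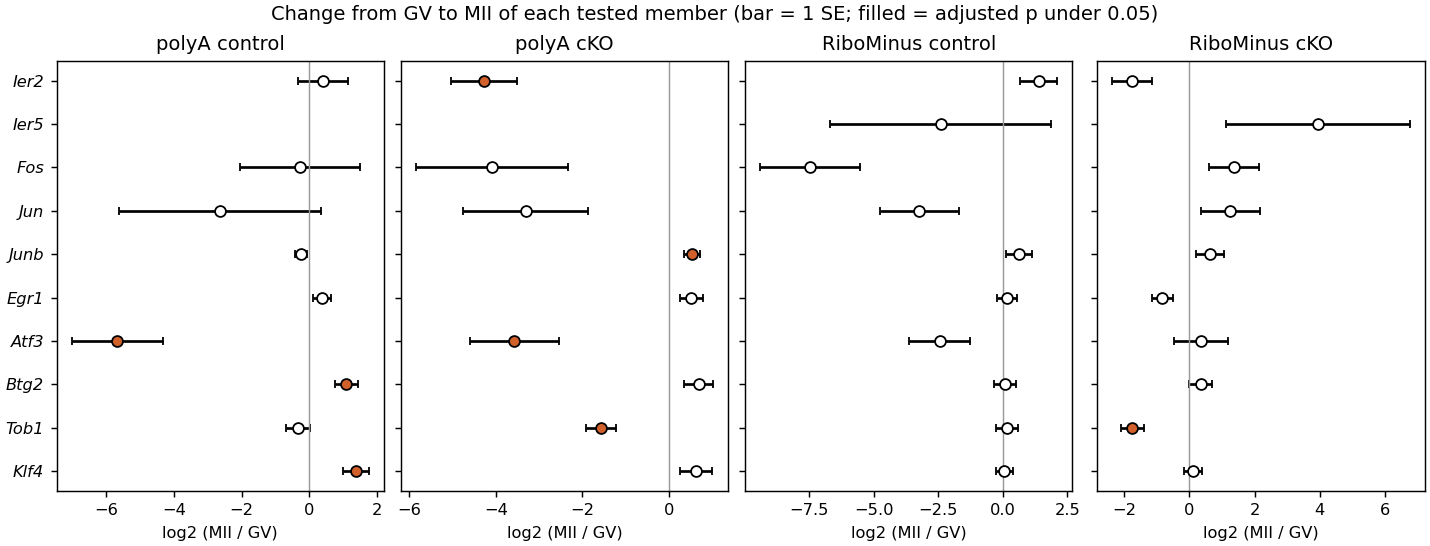
Log2 change from GV to MII of each member in polyA and RiboMinus libraries of both genotypes, with bars of 1 standard error, filled where the adjusted p was under 0.05. Ier2 and Tob1 lie left of 0 in both cKO panels but not in both control panels, where Ier2 lies right of 0, and each panel has its own axis.

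Library types were compared in controls in 1 fit over all 23 females. At GV 3 of 10 members were called, against 17.4% of all genes, and at MII 3 of 10, against 32.7%. Egr1 was higher in RiboMinus than in polyA, at 52.2 against 11.2 CPM at GV (log2 difference 2.18 ± 0.30, adjusted p = 2.37e-05) and 59.1 against 14.1 CPM at MII (1.78 ± 0.31, adjusted p = 0.000106). Tob1 was higher by 1.43 ± 0.39 at GV and 1.74 ± 0.42 at MII (adjusted p = 0.0136 and 0.00247), Junb lower at GV (-1.58 ± 0.29, adjusted p = 0.000489) and Btg2 lower at MII (-1.61 ± 0.46, adjusted p = 0.00908). Without the libraries rich in other-cell markers Tob1 at GV was not called (1.72, adjusted p = 0.0794), and Egr1 and Junb at GV and Egr1, Tob1 and Btg2 at MII were (adjusted p of up to 0.0153). The call of Tob1 at GV was also lost without V889, V1132 or V1133 (adjusted p = 0.0519 to 0.160), and the other calls held without any 1 female that could be left out. With the GV3h groups taken out of this fit, the same members were called, but Junb at GV was lost without V1133 (-1.242, adjusted p = 0.117), Btg2 at MII without V836 (-1.12, adjusted p = 0.0731), and Tob1 at GV also without V856 (1.76, adjusted p = 0.0570). There the genotype difference of Fos at MII, not called with all females to differ between library types, passed in 5 of the 16 fits that left out a female (adjusted p = 0.0276 to 0.0497). Kits, priming and animals differ between the library types and cannot be told apart. Per length, as CPM per kilobase of exon at GV in controls, Junb was highest of the 10 genes in polyA (11.9), followed by Btg2 (6.71) and Tob1 (5.92), and Tob1 was highest in RiboMinus (15.9), followed by Egr1 (11.6) and Btg2 (5.09). The genotype difference was not called to differ between library types for any member, at GV (0.00404% of all genes called) or at MII (9.43%). At GV that difference was 1.03 ± 1.08 for Ier2 and 0.27 ± 0.54 for Tob1, and 555 genes had an unadjusted p under 0.05.

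Other immediate early genes moved in both directions. Of 36 listed, 25 were tested in polyA: 5 were called higher and 0 lower in cKO at GV, or 20% against 7.38% of all genes. After 3 h 10 were higher and 2 lower (48% against 25.2%), and in polyA eggs 4 higher and 3 lower (28% against 18.9%). In RiboMinus 32 were tested, with 0 called at GV (0.0315% of all genes) and 5 higher and 1 lower at MII (18.8% against 7.3%), where the cKO eggs held the other-cell markers given above. At GV3h the largest rises were of the phosphatase genes Dusp5 (0.111 ± 0.027 CPM in controls, 16.2 ± 10.2 CPM in cKO, SD, n = 3 each) and Dusp2 (1.30 ± 0.42 and 29.8 ± 13.8 CPM) and of Id3, an inhibitor of helix-loop-helix factors (4.07 ± 2.35 and 70.1 ± 12.7 CPM). Their log2 changes were 6.97, 4.40 and 4.06 (adjusted p = 5.66e-05, 0.000629 and 0.000566). Dusp1, a phosphatase of MAP kinases, fell, from 87.7 ± 10.3 to 31.8 ± 8.25 CPM at GV3h (log2 change -1.49 ± 0.32, adjusted p = 0.00309) and by 1.46 ± 0.31 on the log2 scale at polyA MII (adjusted p = 0.00509).

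Relatives of the KLF and BTG/TOB members divided in direction. All 14 were tested. In polyA the numbers called higher and lower in cKO were 2 and 2 before culture (28.6% against 7.38% of all genes), 5 and 3 after 3 h (57.1% against 25.2%), and 2 and 2 in eggs (28.6% against 18.9%). In RiboMinus 0 were called in oocytes, where 0.0315% of all genes passed. In RiboMinus eggs 4 were higher and 0 lower (28.6% against 7.3%), in the same cKO eggs with markers of other cells, whose part in this count was not tested. Btg3 rose at polyA GV3h by 2.92 ± 0.59 (adjusted p = 0.0022) and Klf6 by 1.98 ± 0.42 (adjusted p = 0.0031). The oocyte-expressed deadenylase adapter Btg4 fell by 0.92 ± 0.13 (adjusted p = 0.000276), and Klf7 by 1.33 ± 0.15 (adjusted p = 5.66e-05). Among 17 genes of AU-rich element binding proteins and partners of BTG/TOB proteins, 4 were called higher and 5 lower at polyA GV3h, or 52.9% against 25.2% of all genes. Before culture 2 were higher and 1 lower in polyA (17.6% against 7.38%), and in polyA eggs 2 higher and 2 lower (23.5% against 18.9%). In RiboMinus oocytes 0 were called, where 0.0315% of all genes passed, and in RiboMinus eggs 5 were higher and 0 lower (29.4% against 7.3%), again in the cKO eggs that held other-cell markers, whose part was not tested. Those called at polyA GV3h included the polyA-binding protein gene Pabpc1, up by 3.20 ± 0.43 (adjusted p = 0.000164), and the CCR4-NOT deadenylase gene Cnot7, down by 1.57 ± 0.23 (adjusted p = 0.000287). Of 20 upstream regulators, 3 were called higher and 5 lower at polyA GV3h (40% against 25.2% of all genes). Before culture 0 were higher and 2 lower in polyA (10% against 7.38%), and in polyA eggs 5 higher and 2 lower (35% against 18.9%). The RiboMinus libraries gave 0 in oocytes (0.0315% of all genes) and 1 higher and 1 lower in eggs (10% against 7.3%), again with the cKO eggs that held other-cell markers. The regulators called at polyA GV3h included Creb1, the cAMP response element binding protein, up by 1.86 ± 0.44 (adjusted p = 0.00619) and the kinase gene Mapk3 down by 1.14 ± 0.24 (adjusted p = 0.00277). In eggs the library types differed in sign for Mapk3, which was higher in cKO in polyA, by 2.05 ± 0.25 (adjusted p = 8.13e-05), and lower in RiboMinus, at -1.31 ± 0.30 (adjusted p = 0.0379). The RiboMinus control there is 1 female, and 3 of the 4 cKO eggs passed 25 CPM of other-cell markers. Their part in this difference in sign was not tested.

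Genes whose means over the 10 groups were most like those of a member, centred within library type, were found among 19030 genes tested in both library types. For Ier2 they were Ostm1 and Osgin2 (Pearson's r of 0.99 for both) and Gm39459 (0.98), and for Tob1 AI837181 (0.99), Peg10 (0.98) and B230219D22Rik (0.97). For Btg2 they were St6galnac3, 5930438M14Rik and Zbtb20 (0.98 each). Among the members themselves r was 0.88 between Ier2 and Tob1, 0.93 between Fos and Jun, and -0.79 between Btg2 and Tob1. These values describe 10 means and carry no test.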

How the data were processed

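The deposited files hold raw gene counts, made by the authors, 1 file per oocyte; the submitters' processing notes name cutadapt 2.5, STAR 2.7.2a, SAMtools 1.9, HTSeq 0.9.1, DESeq2 1.24.0 and the build mm10, without their roles, and the annotation release and strand setting are not given in the sources used here. The files hold 0 spike-in rows, so levels are relative to the other genes of a library. The 22 rRNA files were not used. The members and all gene lists were chosen with earlier results of these data known.

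For each female the counts of its oocytes were summed. After filterByExpr and TMM scaling, edgeR 4.0.16 in R 4.3.3 tested them two-sided with glmQLFit and glmQLFTest, with all groups of a library type in 1 fit (16 polyA and 7 RiboMinus females). P-values were adjusted by Benjamini-Hochberg over all genes tested. Standard errors were taken from the F statistic. The fit was tested on simulated data. Ratios against groups with 3 counts or fewer have exact binomial intervals at 95% confidence, and a group at 0 was set at 3 counts.

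Named genes were all members and, in each other list and genotype contrast, up to 3 called with the largest rise and 3 with the largest fall, of which a selection is given. Alternatives were single oocytes as replicates, only the groups compared in the fit, limma 3.58.1 voom with a random female block, DESeq2 1.42.0, 2 other scalings, 2 other filters and leaving out each female. P-values measure the spread between females. Gene positions are from a GENCODE annotation on GRCm38, and promoters from RefSeq.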

Additional observations from a re-analysis of the deposited data

Results flagged for a closer look

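Ier2 differed between the stages in its response to the genotype in polyA libraries: the interaction of GV to MII with genotype had a log2 value of -4.68 ± 1.08 (edgeR, adjusted p = 0.0377), from a 10.2-fold rise at GV to a log2 change of -1.33 at MII. The call was lost in 11 of the 16 fits that left out a female, over which the value ranged from -5.42 to -3.09. It was also lost without the libraries rich in other-cell markers (-4.28).

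Egr1 in RiboMinus GV cKO oocytes had 1 oocyte, of female V1131, at 179 CPM, farther from the other 6 than the critical gap for a group of 7. In all, 42 combinations of a member and a group of 4 to 10 oocytes were examined in this way, and chance flags about 1 in 20.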

How the results depend on the processing

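No paired analysis was possible because each female belongs to 1 group and an oocyte number only names an oocyte within its female. No called member value changed sign. The counts of members called that moved by over 1.5 times are given first, with the percentage of all genes called under the same alternative in parentheses. The ranges over the fits that left out a female follow for the contrasts named there, and not for all contrasts, with the range of that percentage. The counts reported above were 1 (7.38%) at polyA GV, 4 (25.2%) at polyA GV3h, 2 (18.9%) at polyA MII, 0 (0.0315%) at RiboMinus GV and 1 (7.3%) at RiboMinus MII between genotypes. From GV to MII they were 3 (42.5%) in polyA controls, 4 (44.7%) in polyA cKO, 0 (0.00787%) in RiboMinus controls and 1 (2.32%) in RiboMinus cKO, and for the stage by genotype interaction 1 (1.94%) in polyA and 0 (0%) in RiboMinus. With single oocytes as replicates, which ignores shared females, the genotype counts were 3 (40.4%) at polyA GV, 4 (37.6%) at RiboMinus GV and 2 (23.7%) at RiboMinus MII. The stage counts were then 1 (30.9%) in RiboMinus controls and 2 (16.1%) in RiboMinus cKO, the interactions gave 2 (14.7%) in polyA and 2 (14.8%) in RiboMinus, the library interaction at MII gave 2 (20.6%) and the library contrast at GV 6 (61.2%). With only the compared groups in the fit the count was 0 at polyA GV (0.00555%), polyA MII (18.3%), RiboMinus cKO from GV to MII (0%) and the polyA interaction (0.0722%), 2 (37.7%) in polyA cKO from GV to MII and 1 (27.9%) in RiboMinus controls. DESeq2 size factors gave 2 (7.4%) at polyA GV and 0 (1.79%) in RiboMinus cKO from GV to MII, and library totals gave 2 (7.38%), 0 (1.29%) and, at RiboMinus MII, 2 (6.9%). Without a filter the counts were 3 (5.94%) at polyA GV, 2 (4.74%) at RiboMinus GV, 2 (11.9%) at RiboMinus MII, 2 (7.52%) in RiboMinus cKO from GV to MII and 3 (2.89%) for the RiboMinus interaction. A mean of at least 50 counts gave 2 at polyA GV (12%), polyA GV3h (33.2%) and RiboMinus MII (14.3%). Limma voom gave 0 (20.1%) at polyA GV, 2 (8.32%) at RiboMinus GV, 2 (24.8%) at RiboMinus MII and 1 (4.36%) for the RiboMinus interaction. The DESeq2 Wald test gave 2 (14.2%) at polyA GV, 3 (6.16%) at RiboMinus GV, 3 (20.9%) at RiboMinus MII, 1 (6.37%) and 2 (11.7%) in RiboMinus controls and cKO from GV to MII, 2 (5.91%) for the polyA interaction and 3 (4.49%) for the RiboMinus interaction. Without the libraries rich in other-cell markers, an alternative chosen after seeing the data, the count was 0 (0.492%) at polyA GV, 1 (18.1%) at polyA GV3h, 2 (3.86%) at RiboMinus GV, 0 (9.03%) at RiboMinus MII, 1 (28.2%) in polyA controls and 0 (0.826%) in RiboMinus cKO from GV to MII, and 0 (0.432%) for the polyA interaction. Leaving out each female in turn gave 0 to 2 at polyA GV (0.529% to 9.03%), 2 to 4 at polyA GV3h (15.7% to 27.5%), 1 to 2 at polyA MII (13.5% to 19.6%), 0 to 1 at RiboMinus GV (0.00798% to 4.71%) and 0 to 3 at RiboMinus MII (1.02% to 15.2%). It gave 1 to 3 in polyA controls (28.6% to 43%) and 1 to 5 in polyA cKO from GV to MII (31.9% to 46.6%), 0 to 1 in RiboMinus cKO (0.0247% to 7.61%) and 0 to 2 for the polyA interaction (0.293% to 6.03%). For the library interaction at MII it gave 0 (7.26% to 12.1%), and for the library contrasts 2 to 3 at GV (9.91% to 20.6%) and 3 to 4 at MII (30.1% to 36.3%), all added after seeing the data. The library fits without the GV3h groups, whose values were seen before those of the fit over all 23 females, called 3 members at GV (12.6%), 3 at MII (25.6%) and 0 in the interactions (0.00375% at GV and 4.36% at MII). Leaving out each female there gave 1 to 3 (5.74% to 15.8%), 2 to 3 (22.6% to 29.7%), and 0 to 1 for the interaction at MII (3.02% to 6.65%). Where 1 female was left in an arm, it was assumed to vary like the other groups. Contrasts that need the only RiboMinus MII control female could not be run without her. The cause of these shifts was not tested. Levels of Ier5, Fos and Jun rest on few counts in most oocytes, which limits their precision.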
